A study of Mus musculus with 18 samples.

Results

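NG Capture-C contact profiles of 6 viewpoints were compared between erythrocytes and definitive endoderm (DE). These are the erythrocyte and DE libraries of the enhancer capture, chosen by their labels and by no measured value, and they make up 6 of the 18 samples of the series, with 3 libraries per cell type. In NG Capture-C, crosslinked chromatin is cut with the restriction enzyme DpnII, ends that lay close together in the nucleus are ligated, and the ligation products of chosen fragments, the viewpoints, are pulled down with oligonucleotides and sequenced. The series captured promoters and, separately, enhancers in mouse embryonic stem cells (ESC), DE and erythrocytes. The erythrocytes were filtered but unsorted single cell suspensions from spleens of C57BL/6 mice that had been treated with phenylhydrazine, a drug that destroys red cells and drives the spleen to make new ones, and were taken on day 5. The DE was made from 129/Sv//EV ESC, which formed embryoid bodies without LIF, were then given Activin A and EGF, and were collected on day 5 of differentiation. Cell type, strain, and tissue or culture origin therefore cannot be told apart in any difference below. The sources used here do not say whether the libraries of a cell type came from separate mice or separate differentiations, so the p-values measure the spread between these libraries, which may be technical. These data hold contacts and no expression, so the labelled cell types could not be checked against marker genes.

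Eomes encodes a T-box transcription factor needed for the primitive streak and for the specification of definitive endoderm. VPE, PSE_a and PSE_b are the names the labels give to candidate enhancers close to it. Hba and Hbb are the alpha-globin and beta-globin gene clusters, which erythroid cells transcribe at very high levels, and Slc25a37 encodes mitoferrin 1, the carrier that brings iron into the mitochondria of erythroid cells for haem synthesis. The erythroid enhancers of alpha-globin lie upstream of the cluster, several of them in introns of the neighbouring gene Nprl3, and those of beta-globin form the locus control region beyond the embryonic gene Hbb-y.

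The fragments captured as a viewpoint hold no values in the files, which shows where each one lies (coordinates in mm9, also named NCBIM37). VPE lay at chr9:118394813-118397837, over the end of Eomes and the sequence after it. PSE_a lay at chr9:118376738-118378092 and PSE_b at chr9:118380281-118382070, both between genes on the other side of the Eomes start. The other 3 viewpoints of the enhancer capture lay at promoters, against the name of the capture. Hba covered the start of Hba-a1 (chr11:32182317-32184781) and the start of Hba-a2 (chr11:32194990-32197598), Hbb covered the start of Hbb-b2 (chr7:110961283-110963273) and Slc25a37 covered its own start (chr14:69902161-69904393). They are therefore called viewpoints here and not enhancers. The fragments at the start of Hbb-b1 were empty too, and reads from Hba-a1 and Hba-a2, or from Hbb-b1 and Hbb-b2, which are near-identical copies, may not have been told apart.

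The sequences on the lines that follow are the middle 300 bases of the central captured fragment of PSE_a (chr9:118377081-118377380) and PSE_b (chr9:118381419-118381718), the viewpoints between genes. After them come the middle 300 bases of 1 contacted fragment of each of the other chromosomes, taken from the bin with the largest rise in erythrocytes described below. These were an Nprl3 fragment contacted by Hba (chr11:32147499-32147798), a fragment beyond Hbb-y contacted by Hbb (chr7:111021015-111021314) and a fragment contacted by Slc25a37 (chr14:69942333-69942632). Each was chosen for the highest erythrocyte mean among the longer fragments of its bin with a DE read. Its contact values are therefore no support beyond that of the bin. All are given on the plus strand of mm9, with matches to AGATAA or TGATAA, which GATA factors bind, or to their reverse complements in capitals.
PSE_a: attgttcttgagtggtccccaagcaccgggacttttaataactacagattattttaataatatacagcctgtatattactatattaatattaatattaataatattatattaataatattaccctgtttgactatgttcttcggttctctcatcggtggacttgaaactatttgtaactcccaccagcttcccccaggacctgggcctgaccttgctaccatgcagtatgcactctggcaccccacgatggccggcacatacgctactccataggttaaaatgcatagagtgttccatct
PSE_b: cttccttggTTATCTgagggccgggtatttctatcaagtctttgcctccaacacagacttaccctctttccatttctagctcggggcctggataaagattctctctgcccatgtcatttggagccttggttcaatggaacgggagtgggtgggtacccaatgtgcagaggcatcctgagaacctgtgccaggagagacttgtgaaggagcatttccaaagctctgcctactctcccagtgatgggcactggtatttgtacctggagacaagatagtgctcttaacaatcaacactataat
Nprl3 fragment: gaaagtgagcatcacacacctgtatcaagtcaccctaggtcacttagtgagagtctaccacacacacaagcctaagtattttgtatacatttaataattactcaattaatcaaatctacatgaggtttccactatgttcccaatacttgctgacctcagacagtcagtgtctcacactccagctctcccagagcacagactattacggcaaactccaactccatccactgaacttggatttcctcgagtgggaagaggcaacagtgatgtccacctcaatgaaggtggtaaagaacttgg
Fragment beyond Hbb-y: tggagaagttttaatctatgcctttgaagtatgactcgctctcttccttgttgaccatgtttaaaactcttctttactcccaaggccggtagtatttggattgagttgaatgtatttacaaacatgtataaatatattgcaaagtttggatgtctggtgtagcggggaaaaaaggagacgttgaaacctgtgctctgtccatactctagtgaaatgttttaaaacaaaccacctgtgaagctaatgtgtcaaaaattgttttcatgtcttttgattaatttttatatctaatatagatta
Fragment near Slc25a37: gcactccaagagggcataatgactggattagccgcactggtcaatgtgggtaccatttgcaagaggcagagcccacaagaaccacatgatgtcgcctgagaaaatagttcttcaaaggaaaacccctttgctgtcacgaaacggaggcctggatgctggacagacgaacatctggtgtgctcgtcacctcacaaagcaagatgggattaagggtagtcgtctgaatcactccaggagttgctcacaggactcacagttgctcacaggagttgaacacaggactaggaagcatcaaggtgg
PSE_b held 1 match, to AGATAA on the minus strand, and the other 4 sequences held 0. Windows of the same length held at least 1 match in 32.1% of chromosome 9, 29.8% of chromosome 11, 31.6% of chromosome 7 and 34.8% of chromosome 14. AATCCACA and AATACACA, which Foxh1 binds, were searched on both strands as well and had 0 matches in these 5 sequences. Windows of the same length held at least 1 in 3.27% to 3.64% of these chromosomes. The whole PSE_b fragment of 1004 bases held 1 Foxh1 match and 2 GATA matches. Windows of that length held at least 1 in 11.1% and 71.3% of chromosome 9. The whole fragments of the other 4 held 0 of either.

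A value below is a number of interactions per 100000 on the viewpoint's own chromosome (cis). Erythrocyte libraries held 688 to 26114 cis interactions per viewpoint and DE libraries 1696 to 113526, so that 1 read was worth up to 145 units in an erythrocyte library (Hbb, replicate 3) and up to 59.0 units in a DE library (Hbb, replicate 2). Counting error is therefore larger in every erythrocyte library than in any DE library at each viewpoint but Hbb. There 1 read was worth 31.5, 40.9 and 145 units in erythrocytes and 30.0, 59.0 and 46.1 in DE, and only erythrocyte replicate 3 was above all DE libraries. A region without an erythrocyte read cannot be called free of contact at this depth. A region also passed the minimum of 10 reads through the DE libraries alone in many cases, and its p is then not independent of the group in which it is high. The erythrocyte libraries also differed from each other. Over the 6 viewpoints the median share of interactions in cis was 28.8% in erythrocyte replicate 1, 70.9% in replicate 2 and 31.7% in replicate 3, against 58.0%, 59.5% and 57.2% in the DE libraries. Erythrocyte replicate 3 had the highest share of contacts within 20 kb at every viewpoint. The part of these library differences in the results was not tested, and results are given per library for that reason.

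At the Eomes enhancers, erythrocytes made fewer contacts than DE across the 308 kb gene-poor stretch between Cmc1 and Eomes (chr9:118059199-118367330). VPE had 7994, 8959 and 7055 interactions per 100000 with this stretch in erythrocyte replicates 1, 2 and 3 and 23867, 22941 and 23884 in DE. The erythrocyte values were all below the DE values and the fall was 2.94-fold (log2 fold change -1.56, SE 0.12, adjusted p = 4.56e-08, limma). PSE_a had 8294, 10855 and 5775 in erythrocytes and 30689, 29821 and 28844 in DE, a 3.59-fold lower mean (log2 fold change -1.89, SE 0.26, adjusted p = 0.000945, limma). PSE_b had 9927, 12540 and 7528 in erythrocytes and 30345, 30266 and 30286 in DE, a 3.03-fold lower mean (log2 fold change -1.63, SE 0.25, adjusted p = 0.00200, limma). No erythrocyte library reached the lowest DE library at any of the 3 enhancers. The 3 calls were lost where the variance was not allowed to follow the level (adjusted p = 0.0794, 0.0608 and 0.0781, limma) and held in the other alternatives run.

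**Figure D1:**
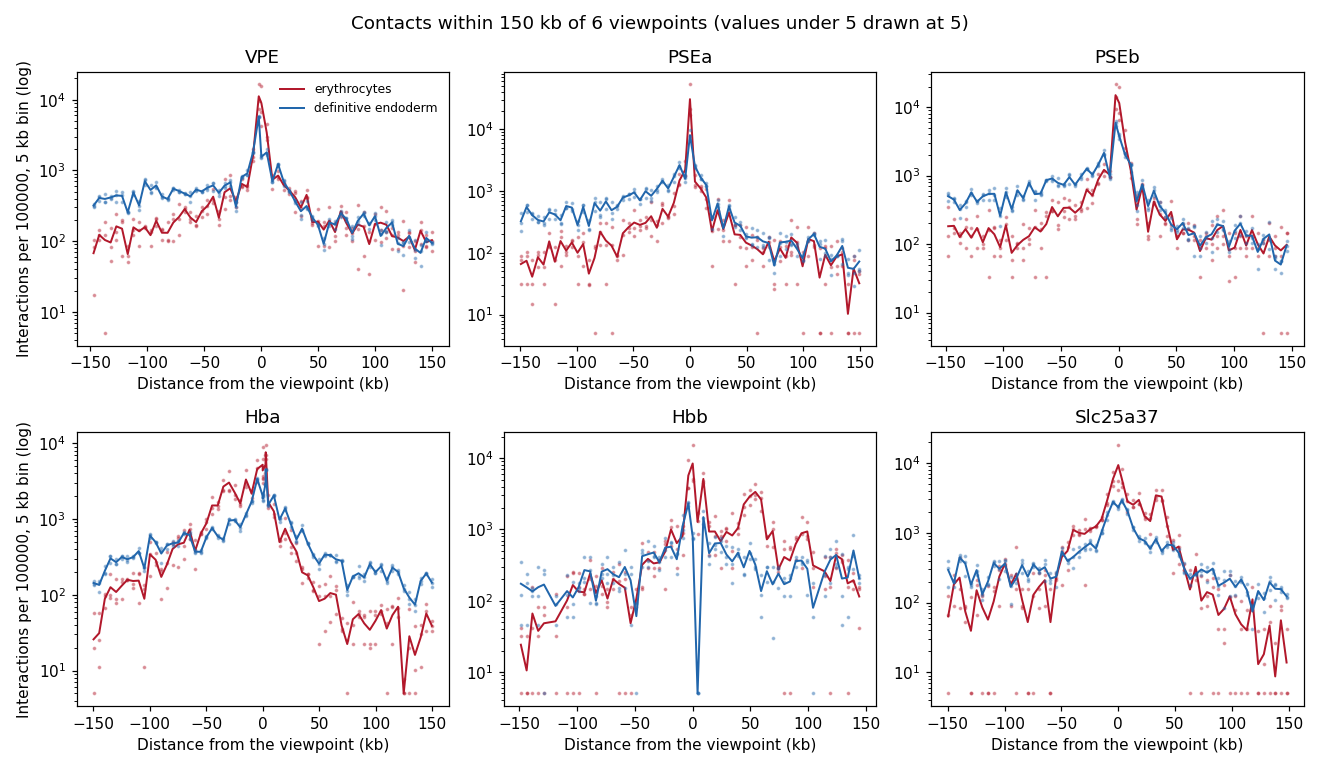
Interactions per 100000 in 5 kb bins (log axis) against the distance from each viewpoint in kb, with negative distances at lower coordinates. Lines are means of 3 libraries, points are libraries, red is erythrocytes and blue is DE. On the lower-coordinate side of VPE, PSEa and PSEb the DE line runs above the erythrocyte line, while beside Hba, Hbb and Slc25a37 the erythrocyte line rises above the DE line on 1 side or both within 100 kb.

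Up to 500 kb, most of the bins that fell lay on the side of Cmc1. Of the contacts between 20 and 500 kb from VPE, 52.3%, 56.1% and 55.2% lay at lower coordinates, towards Cmc1, in erythrocytes, against 76.4%, 75.6% and 75.9% in DE. For PSE_a these shares were 54.2%, 53.7% and 60.6% against 78.0%, 77.5% and 77.0%, and for PSE_b 55.6%, 61.0% and 53.2% against 78.3%, 77.7% and 79.3%. At each enhancer the erythrocyte libraries were near an even split and the DE libraries were not, with no overlap (difference of means -21.5, -21.4 and -21.8 percentage points, exact two-sided permutation p = 0.1, the smallest that 3 libraries against 3 allow). Between 100 and 500 kb, 63 of the 78 VPE bins tested at lower coordinates fell, beside 6 of 80 at higher coordinates. For PSE_a the counts were 49 of 77 and 0 of 76, and for PSE_b 54 of 78 and 2 of 80. Between 500 kb and 2 Mb the falls were few. For VPE they lay at higher coordinates only, with 0 of 280 bins at lower and 4 of 250 at higher coordinates. For the other 2 enhancers they lay on both sides, with 8 of 113 and 9 of 87 for PSE_a, and 19 of 172 and 7 of 128 for PSE_b. Of all bins tested, wherever they lay, 6.05%, 20.3% and 17.7% fell with VPE, PSE_a and PSE_b, and 0.219%, 0.457% and 0.337% rose.

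The genes of this domain were measured in 5 kb windows around their starts. Of 7 genes (Eomes, Azi2, Cmc1, Zcwpw2, Golga4, Itga9 and Rbms3), all tested, 3 fell with VPE (6.27% of all bins were called), 2 with PSE_a (20.8%) and 3 with PSE_b (18.0%), and none rose. The median log2 fold changes of the 7 were -0.75, -0.94 and -0.91, beside -0.44, -0.96 and -0.81 over all bins. Most bins tested lay beyond 500 kb, farther off than these genes apart from Rbms3. Between 100 and 500 kb, where Azi2, Cmc1, Zcwpw2 and Itga9 lie, 69 of 158, 49 of 153 and 56 of 158 bins fell. The medians of those bins were -1.19, -1.22 and -1.25, so the genes as a set did not fall more than bins at such distances. Contact of VPE with the start of Cmc1, which encodes a mitochondrial protein of cytochrome oxidase assembly, was 71.6, 171 and 102 in erythrocytes and 473, 467 and 583 in DE. All erythrocyte libraries were below all DE libraries (log2 fold change -2.12, SE 0.33, adjusted p = 0.000378, limma). For Azi2, an adaptor of the kinase TBK1, the VPE values were 78.1, 120 and 102 against 321, 328 and 356, again without overlap (log2 fold change -1.66, SE 0.32, adjusted p = 0.00153, limma).

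PSE_a and PSE_b gave the same direction for both genes. Cmc1 fell with PSE_a (74.6, 104 and 61.8 in erythrocytes, 347, 264 and 335 in DE, adjusted p = 0.00598, limma) and with PSE_b (44.1, 58.1 and 66.6 against 242, 327 and 296, adjusted p = 0.00529, limma). Azi2 fell with PSE_b, where erythrocyte replicates 2 and 3 had no read and replicate 1 had 3, against 23, 33 and 22 reads in DE (adjusted p = 0.00695, limma). That call was lost without DE replicate 3 (adjusted p = 0.0820). With PSE_a the Azi2 reads were 3, 1 and 1 against 16, 18 and 17 (adjusted p = 0.0292, limma), a call that edgeR did not make (adjusted p = 0.147) and that was lost without DE replicate 1, 2 or 3 (adjusted p = 0.0953, 0.111 and 0.177, limma). Without the minimum of 10 reads, which adds many near-empty bins to the adjustment, the Azi2 call was lost at all 3 enhancers and the Cmc1 call with PSE_a and PSE_b, and where the variance was not allowed to follow the level both calls were lost at all 3.

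Golga4, a golgin of the trans-Golgi, lies on the other side of Eomes and was lower by less. VPE had 677, 667 and 777 interactions per 100000 with its start in erythrocytes and 1231, 1121 and 1141 in DE (log2 fold change -0.71, SE 0.21, adjusted p = 0.0412, limma). PSE_b had 308, 319 and 267 against 596, 637 and 477 (log2 fold change -0.91, SE 0.29, adjusted p = 0.0439, limma). Neither of these 2 sets of libraries overlapped, but the VPE call was lost without any 1 of the DE libraries (adjusted p = 0.177, 0.126 and 0.146 without replicates 1, 2 and 3) and the PSE_b call without DE replicate 1 or 2 (adjusted p = 0.122 and 0.129). With PSE_a the Golga4 values were 254, 466 and 92.6 against 642, 450 and 469, with overlap, and the test was not passed. The integrin gene Itga9, farther on the same side, passed with none of the 3 enhancers (adjusted p = 0.887 with VPE, 0.268 with PSE_a and 0.667 with PSE_b, limma). Ctdspl, a phosphatase gene beyond Itga9 at 438 kb from VPE and outside the list of 7, fell with VPE, with 6, 0 and 0 reads in erythrocytes against 44, 23 and 21 in DE (log2 fold change -2.54, SE 0.62, adjusted p = 0.0111, limma). That call was lost without DE replicate 1 or 3 (adjusted p = 0.100 and 0.128), and Ctdspl did not pass with PSE_a or PSE_b (adjusted p = 0.782 and 0.573).

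Contact with the Eomes promoter itself did not pass the test with any of the 3 enhancers. VPE had 1575, 1351 and 1984 interactions per 100000 with the 5 kb around the Eomes start in erythrocytes and 1853, 1780 and 1847 in DE, with overlap (log2 fold change -0.18, SE 0.19, adjusted p = 0.660, limma). PSE_a had 1193, 1114 and 1019 against 1860, 1583 and 1575, where all erythrocyte libraries were lower but the test was not passed (log2 fold change -0.59, SE 0.26, adjusted p = 0.147, limma). PSE_b had 2555, 2148 and 4697 against 2097, 1854 and 2164, with the highest value in erythrocyte replicate 3 (log2 fold change 0.54, SE 0.30, adjusted p = 0.302, limma). edgeR on the recovered reads called the PSE_b value higher (log2 fold change 0.73, adjusted p = 0.0352). These windows lie 5.26 to 9.24 kb from the viewpoints, where contact depends strongly on the share of a library that fell close to its viewpoint. Contacts among VPE, PSE_a and PSE_b could not be measured, since the fragments of all 3 are empty at each of them.

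By the rule for single bins (past the threshold, farther than 20 kb and without overlap), the lower bins with the largest fold changes lay in the Cmc1 to Eomes stretch or at Azi2. With VPE the bin of largest change, at chr9:118095001-118100000 between Cmc1 and Eomes, had 52.1, 85.5 and 20.4 interactions per 100000 in erythrocytes and 445, 402 and 454 in DE (8.24-fold lower, log2 fold change -2.97, SE 0.39, adjusted p = 0.000106, limma). With PSE_a it lay in the same stretch, at chr9:118160001-118165000, with 4, 0 and 0 reads in erythrocytes and 42, 51 and 31 in DE (adjusted p = 0.00168, limma), and the call was lost without DE replicate 2 (adjusted p = 0.0523). With PSE_b it overlapped exons of Azi2 and Cmc1 at chr9:117970001-117975000, with 4, 0 and 0 reads against 37, 41 and 23 (adjusted p = 0.00543, limma). Only 1 bin past 20 kb was higher in erythrocytes, with PSE_a, in Itga9 (chr9:118580001-118585000, 7, 9 and 3 reads against 2, 7 and 1, adjusted p = 0.0363, limma). Leaving out erythrocyte replicate 1 or 2 ended that call (adjusted p = 0.0592 and 0.109), and so did leaving out DE replicate 1, 2 or 3 (adjusted p = 0.147, 0.0622 and 0.125).

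**Figure D2:**
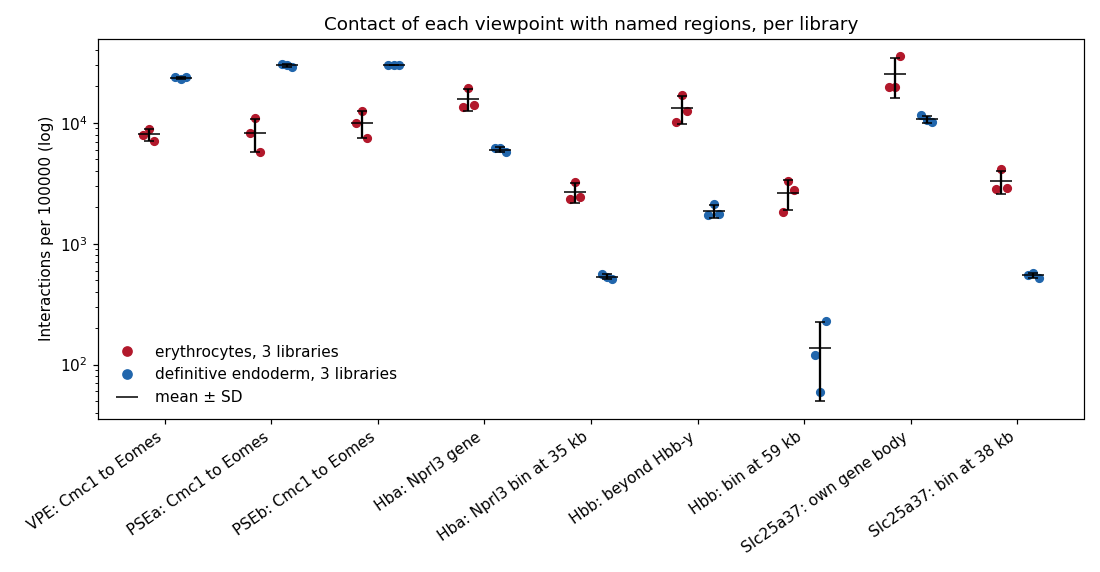
Interactions per 100000 (log axis) of each viewpoint with the regions described in the text, per library, with the mean and SD of 3 libraries. Red points are erythrocytes and blue points are DE. The groups do not overlap in any of the 9 regions: the Cmc1 to Eomes stretch is lower in erythrocytes at all 3 Eomes enhancers, and the 6 regions beside Hba, Hbb and Slc25a37 are higher.

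At the alpha-globin viewpoint, erythrocytes contacted the neighbouring gene Nprl3 more than DE did. Nprl3 encodes a subunit of GATOR1, an inhibitor of mTORC1. Over the whole gene (chr11:32125628-32167707) Hba had 13533, 19375 and 14080 interactions per 100000 in erythrocytes and 6160, 6149 and 5689 in DE. Every erythrocyte library had more than every DE library, and the rise was 2.61-fold (log2 fold change 1.36, SE 0.15, adjusted p = 0.00838, limma). The call was lost in DESeq2 (log2 fold change 0.56, adjusted p = 0.135) and with values scaled to all interactions instead of cis interactions (log2 fold change 0.59, adjusted p = 0.476), which takes in the low cis shares of erythrocyte replicates 1 and 3. The bin with the largest rise, chr11:32145001-32150000, lies inside Nprl3 at 34.8 kb from the viewpoint and overlaps an exon of it. It had 2332, 3263 and 2443 against 557, 532 and 506 (5.04-fold higher, log2 fold change 2.30, SE 0.21, adjusted p = 0.00749, limma). It lost its call with scaling to all interactions (log2 fold change 1.51, adjusted p = 0.104, limma). The fragment printed above, chosen from this bin by its erythrocyte mean, had 708, 655 and 477 against 116, 120 and 123.

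On the other side of the alpha-globin genes, bins near the viewpoint fell. Of the contacts between 20 and 500 kb from Hba, 78.7%, 83.8% and 85.0% lay at lower coordinates, the Nprl3 side, in erythrocytes and 59.0%, 58.4% and 58.4% in DE (difference of means 23.9 percentage points, exact two-sided permutation p = 0.1, the smallest possible). Between 20 and 100 kb, 4 of 16 bins on the Nprl3 side rose and 0 fell, while 0 of 16 on the other side rose and 11 fell. Over all Hba bins tested, 0.645% rose and 4.26% fell, or 4.91% in either direction. Of the 10 listed genes beside the cluster, 1 rose (the start of Nprl3, which edgeR did not call, adjusted p = 0.0628), 1 fell (Efcab9) and 8 did not pass, with a median log2 fold change of -0.29 beside -0.31 over all bins. Mpg, a DNA glycosylase gene that overlaps the end of Nprl3, had 517, 458 and 422 against 259, 253 and 310, without overlap but not past the threshold (log2 fold change 0.74, SE 0.25, adjusted p = 0.0754, limma), and it passed without erythrocyte replicate 3 (adjusted p = 0.0170).

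Of the other genes beside the cluster, Il9r, the interleukin-9 receptor gene on the far side of Nprl3, had 306, 307 and 122 in erythrocytes and 459, 446 and 466 in DE. It missed the threshold in limma (log2 fold change -0.98, adjusted p = 0.103) and passed it in edgeR (log2 fold change -1.50, adjusted p = 0.00209) and in limma without erythrocyte replicate 3 (adjusted p = 0.0495). Sh3pxd2b, an adaptor of invasive cell protrusions on the other side, had 130, 95.7 and 22.2 against 258, 295 and 219 (log2 fold change -1.77, adjusted p = 0.0689, limma). It passed in edgeR (log2 fold change -2.14, adjusted p = 6.57e-05) and in limma without erythrocyte replicate 1 or 3 (adjusted p = 0.0484 and 0.0102). Efcab9 had 7, 6 and 0 reads against 103, 116 and 73 (adjusted p = 0.0495, limma), and its call was lost without DE replicate 1, 2 or 3 (adjusted p = 0.0902, 0.0825 and 0.0865). The 3 lower bins of the rule were an intronic and an exonic bin of Nsg2, a gene of neuronal endosomes on the Nprl3 side, and an exonic bin of Sh3pxd2b. The first (chr11:31905001-31910000) held 1, 2 and 1 reads against 163, 173 and 110 (adjusted p = 0.00838, limma), the second (chr11:31915001-31920000) 6, 0 and 0 against 134, 123 and 50 (adjusted p = 0.0214) and the third (chr11:32320001-32325000) 2, 1 and 0 against 117, 134 and 77 (adjusted p = 0.00838).

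The alpha-like globin genes lie within 6 kb of the captured fragments, so their windows are the flank of the viewpoint itself. Of the 5 genes 3 rose (Hba-a2, Hbq1a and Hbq1b) and 2 did not pass, with 4.91% of all bins called. Of the 12 Hba bins within 20 kb, 4 rose and 1 fell. Around the start of Hba-a1, an adult alpha-globin gene, the values were 4622, 4461 and 11281 in erythrocytes and 2361, 2475 and 2747 in DE (log2 fold change 1.28, SE 0.33, adjusted p = 0.0580, limma), and the test was passed without erythrocyte replicate 2 or 3 (adjusted p = 0.0429 and 0.00170). Around the start of Hba-a2, the other adult gene, they were 3573, 3378 and 6584 against 1568, 1607 and 2043 (log2 fold change 1.31, SE 0.27, adjusted p = 0.0290, limma). The erythrocyte libraries lay above the DE libraries at both genes, and replicate 3 was the highest. The Hba-a2 call was lost without DE replicate 1 or 2 (adjusted p = 0.0748 and 0.0643), in edgeR (log2 fold change 0.53, adjusted p = 0.159) and with scaling to all interactions (adjusted p = 0.464).

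The theta-globin genes Hbq1a and Hbq1b were higher in every erythrocyte library, with log2 fold changes of 1.01 and 0.90 (adjusted p = 0.0407 and 0.0406, limma). Both calls were lost without DE replicate 1 (adjusted p = 0.0956 and 0.0917), 2 (0.0825 and 0.0851) or 3 (0.0553 and 0.0698), and in edgeR (adjusted p = 0.610 and 0.815). The embryonic gene Hba-x had 2868, 4330 and 4186 against 3111, 2958 and 3052, with overlap (log2 fold change 0.30, adjusted p = 0.311, limma). Its sign turned in edgeR, in DESeq2 and with scaling to all interactions, and no direction is given for it.

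Far from the viewpoint, 15 of 2768 Hba bins beyond 2 Mb rose and 1 fell. The rule named 2 of them. A bin at an exon of Sertad2 (chr11:20530001-20535000) held 15, 6 and 4 reads in erythrocytes and 0, 2 and 1 in DE (adjusted p = 0.0185, limma). A bin at an exon of the histone gene Hist3h2ba (chr11:58760001-58765000) held 14, 12 and 1 against 2, 0 and 0 (adjusted p = 0.0462, limma). In these bins 5 of 8 and 7 of 9 fragments had no read in any DE or ESC library, all of 129 strain, and on the other fragments the values were 23.0, 10.1 and 22.2 against 0, 1.76 and 1.75, and 30.6, 10.1 and 11.1 against 1.94, 0 and 0. The Hist3h2ba call was lost without erythrocyte replicate 1 or 2 (adjusted p = 0.0779 and 0.0775) or DE replicate 1, 2 or 3 (0.0799, 0.0868 and 0.0772).

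At the beta-globin viewpoint, erythrocytes contacted the 30 kb beyond Hbb-y, the side of the locus control region, far more than DE did. This stretch, chr7:111001755-111031754, had 10095, 16851 and 12500 interactions per 100000 with Hbb in erythrocytes and 1711, 2123 and 1753 in DE. The lowest erythrocyte library was several times the highest DE library, and the rise was 7.06-fold (log2 fold change 2.79, SE 0.21, adjusted p = 0.000129, limma). It passed in each of the 19 alternatives run, with adjusted p up to 0.00935. Of its 68 fragments 18 had no read in any DE or ESC library, and without those the values were 8927, 14479 and 10465 against 1711, 2123 and 1753, a 6.06-fold difference.

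Within it, the bin chr7:111020001-111025000 at 59.2 kb held 58, 81 and 19 reads in erythrocytes and 4, 1 and 5 in DE, or 1830, 3313 and 2762 against 120, 59.0 and 231 per 100000 (19.3-fold higher, log2 fold change 4.31, SE 0.55, adjusted p = 0.000592, limma). The fragment printed above, chosen from this bin by its erythrocyte mean, had 126, 327 and 872 in erythrocytes and 0, 0 and 92.3 in DE. Its lowest erythrocyte library was just above its highest DE library. The neighbouring bin chr7:111015001-111020000 had 2681, 4376 and 3052 against 390, 295 and 277 (10.5-fold higher, log2 fold change 3.34, SE 0.35, adjusted p = 0.000577, limma). Both bins passed in all 19 alternatives, and without the fragments empty in the 129 libraries their ratios were 13.5 and 10.1. Between 20 and 100 kb, 8 of 16 bins on this side rose and 0 of 16 on the other side did, beside 6.34% of all Hbb bins that rose and 49.8% that fell. The share of contacts between 20 and 500 kb that lay at lower coordinates, away from the locus control region, was 24.7%, 19.6% and 12.0% in erythrocytes and 50.1%, 47.4% and 48.0% in DE (difference of means -29.7 percentage points, exact two-sided permutation p = 0.1, the smallest possible).

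Of the 6 beta-like globin genes 1 rose, Hbb-b2, and none fell, with 56.1% of all bins called in either direction. Within 20 kb 4 of 9 Hbb bins rose and 0 fell, and between 20 and 100 kb 8 of 32 rose and 0 fell. Hbb-b2, an adult gene whose start is the viewpoint, had 4732, 5031 and 15552 interactions per 100000 around its start in erythrocytes and 751, 884 and 738 in DE (log2 fold change 3.17, SE 0.43, adjusted p = 0.000592, limma). Its window is the flank of the captured fragments, and it passed in each of the 20 alternatives run. None of these left out fragments without a read in any DE or ESC library, and that check was not made for this window. Hbb-b1, the other adult gene, had 1735, 1840 and 581 against 480, 649 and 277, with overlap through erythrocyte replicate 3, which held 4 reads there (log2 fold change 1.46, SE 0.56, adjusted p = 0.0542, limma). It passed without that library (log2 fold change 1.99, adjusted p = 0.00446) and in edgeR (log2 fold change 2.14, adjusted p = 2.26e-05). The embryonic genes Hbb-y (1073, 1145 and 872 against 600, 708 and 369, adjusted p = 0.0843) and Hbb-bh1 (757, 777 and 1017 against 420, 649 and 554, adjusted p = 0.171) were higher in every erythrocyte library without passing the limma test. Without erythrocyte replicate 3 Hbb-y passed (adjusted p = 0.0424), and Hbb-bh1 changed sign with scaling to all interactions.

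The clusters of olfactory receptor genes, which are silent outside the nose, surround the beta-globin genes. Of 50 Olfr genes within 500 kb, 41 passed the read filter, and of these 1 rose and 14 fell, beside 56.1% of all bins called. Their median log2 fold change was -2.17 and that of all bins was -2.63. The gene that rose, Olfr66, lies in the 30 kb beyond Hbb-y, with 662, 1309 and 1017 against 120, 413 and 231 (log2 fold change 2.04, SE 0.57, adjusted p = 0.0168, limma), and it was lost without erythrocyte replicate 2 (adjusted p = 0.0558), with scaling to all interactions (log2 fold change 1.14, adjusted p = 0.306), with all 3 cell types in the fit (adjusted p = 0.183) and after thinning (adjusted p = 0.0849). Olfr618, on the other side, held no read in the 3 erythrocyte libraries and 5, 2 and 5 in DE, and passed the read filter through DE alone. Cis reads of Hbb were few in both cell types, with 3170, 2445 and 688 in erythrocytes and 3331, 1696 and 2168 in DE. Of the 115 called bins 46 had no erythrocyte read, so each single fall far from Hbb rests on few reads. After all libraries were thinned to the same number of cis reads, 38 bins could be tested, 7 rose and 0 fell. The median log2 fold change of those 38 was 1.26, beside -2.63 over the 205 bins tested before thinning. Bins that dropped under the read minimum could not be tested for a fall, so the thinned count does not show whether they fell.

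Beyond 500 kb the rule named 1 higher bin at Trim34a and Trim34b (chr7:111475001-111480000), with 3, 5 and 3 reads in erythrocytes and 1, 0 and 0 in DE (adjusted p = 0.00944, limma). It was lost without DE replicate 2 or 3 (adjusted p = 0.101 and 0.125), and 13 of its 14 fragments had no read in any DE or ESC library, with 0 erythrocyte reads on the fragment that had one. The 3 lower bins of the rule lay among the olfactory receptor genes, nearest to Olfr555 and Olfr589 and in Olfr547 (chr7:109810001-109815000, chr7:110295001-110300000 and chr7:109680001-109685000), with no erythrocyte read and 21, 17 and 18 DE reads, through which alone they passed the read filter. One of the higher bins beside the viewpoint, where the DE line of the profile plot drops to its floor, held no DE read in any library.

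At Slc25a37, erythrocytes had a peak of contact on the upstream side of the gene and more contact with the gene body. The bin chr14:69940001-69945000, 38.1 kb from the viewpoint and upstream of the start of Slc25a37, had 2852, 4116 and 2915 interactions per 100000 in erythrocytes and 551, 575 and 517 in DE. All erythrocyte libraries were above all DE libraries (6.01-fold, log2 fold change 2.55, SE 0.24, adjusted p = 0.00396, limma). The bin next to it (chr14:69935001-69940000) had 2904, 4116 and 3269 against 737, 825 and 866 (4.24-fold higher, log2 fold change 2.06, SE 0.21, adjusted p = 0.00396, limma). Both bins lie between genes, nearest to Entpd4, a lysosomal and Golgi nucleotidase gene, and both passed in all 19 alternatives run. The fragment printed above, chosen from the first bin by its erythrocyte mean, had 460, 582 and 177 against 54.6, 68.8 and 42.2. The Entpd4 start itself, 50.8 kb away, had 749, 748 and 353 against 606, 609 and 581, with overlap (log2 fold change -0.04, adjusted p = 0.951, limma).

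Over the body of Slc25a37 (chr14:69859908-69903160) the values were 19856, 19875 and 35601 in erythrocytes and 11545, 10566 and 10168 in DE. The groups did not overlap and the mean was 2.33-fold higher (log2 fold change 1.17, SE 0.22, adjusted p = 0.00574, limma), a call lost with scaling to all interactions (log2 fold change 0.66, adjusted p = 0.0688). The 5 kb around its start, which is the flank of the viewpoint, had 4993, 3825 and 18286 against 2046, 1965 and 2376, with erythrocyte replicate 3 far above the rest (log2 fold change 1.73, SE 0.53, adjusted p = 0.0349, limma). That call was lost without erythrocyte replicate 1 (adjusted p = 0.0550) or DE replicate 1, 2 or 3 (0.123, 0.125 and 0.104). Of the contacts between 20 and 500 kb, 39.2%, 34.5% and 36.1% lay at lower coordinates, the side of the gene body, in erythrocytes against 49.7%, 49.3% and 47.1% in DE (difference of means -12.1 percentage points, exact two-sided permutation p = 0.1, the smallest possible).

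Of the 13 listed genes at and beside Slc25a37, 1 rose (Slc25a37) and 5 fell, with 2.61% of all bins that rose and 44.2% that fell (46.8% in either direction). Their median log2 fold change was -1.92 beside -1.58 over all bins. Loxl2, a lysyl oxidase of the extracellular matrix, held 5, 0 and 0 reads in erythrocytes and 35, 43 and 14 in DE (adjusted p = 0.0225, limma), and Stc1, a secreted glycoprotein hormone, held 3, 0 and 0 against 17, 26 and 18 (adjusted p = 0.0175, limma). Both were lost without DE replicate 1 (adjusted p = 0.0814 and 0.0537), 2 (0.0868 and 0.0690) or 3 (0.0664 and 0.0715), in DESeq2 (0.138 and 0.149) and without the read minimum (0.393 and 0.421). The 3 lower bins of the rule had 1, 1 and 0 erythrocyte reads against 80, 71 and 54 DE reads, beside Stc1 (chr14:69680001-69685000 and chr14:69640001-69645000) and in Pebp4 (chr14:70405001-70410000) and passed the read filter through DE. A higher bin in Xpo7 (chr14:71105001-71110000) held 5, 1 and 2 reads against 3, 2 and 1 (adjusted p = 0.0345, limma). Of its 11 fragments 5 had no read in any DE or ESC library, and on the others the values were 52.6, 41.6 and 0 against 16.4, 9.82 and 10.6, with overlap. The call was lost without erythrocyte replicate 3 (adjusted p = 0.0597) or DE replicate 1, 2 or 3 (0.0969, 0.125 and 0.104). Of the 305 called bins 159 had no erythrocyte read, and after thinning to equal cis reads 52 bins could be tested, 9 rose and 0 fell. The median log2 fold change of those 52 was -0.11, beside -1.58 over all bins before thinning. Bins that dropped under the read minimum could not be tested for a fall.

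The distribution of contacts over distance set the 2 kinds of viewpoint apart. Between 20 and 100 kb, the shares of cis interactions in erythrocyte replicates 1, 2 and 3 were 20.3%, 31.6% and 19.0% for Hbb against 9.49%, 10.4% and 10.1% in DE, and 21.4%, 25.1% and 17.3% for Slc25a37 against 13.5%, 12.8% and 12.4%. For Hba they were 18.2%, 23.3% and 16.0% against 16.0%, 16.1% and 15.0%, which overlapped (exact p = 0.3). For the Eomes enhancers the order was turned: VPE had 8.35%, 8.92% and 7.51% against 12.1%, 12.2% and 12.4%, PSE_a 7.14%, 8.89% and 3.68% against 16.4%, 15.2% and 15.3%, and PSE_b 7.17%, 8.27% and 6.23% against 15.9%, 15.8% and 15.4%. The mean over Hba, Hbb and Slc25a37 minus the mean over VPE, PSE_a and PSE_b was 12.4, 18.0 and 11.6 percentage points in the erythrocyte libraries and -1.79, -1.28 and -1.87 in the DE libraries, a difference of 15.6 (exact two-sided permutation p = 0.1, the smallest possible). As shares of all interactions, erythrocyte replicates 1 and 3 no longer stood above DE: Hbb had 5.59%, 22.1% and 4.11% against 6.21%, 6.74% and 6.30%, and Slc25a37 6.33%, 16.3% and 4.70% against 7.20%, 6.95% and 6.37% (exact p = 1 for both). The difference between the 2 sets was then 5.74 percentage points, still without overlap. Shares of 1 library sum to the same whole, so the classes of distance are not independent, and the viewpoints share their libraries.

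Between 100 and 500 kb all 6 viewpoints had lower shares in every erythrocyte library. VPE had 12.0%, 13.3% and 9.92% against 28.6%, 27.9% and 28.9% in DE (difference of means -16.7 percentage points), PSE_a differed by -15.0 and PSE_b by -15.3, Hba by -11.7, Hbb by -12.4 and Slc25a37 by -11.2, each with exact p = 0.1. Between 500 kb and 2 Mb the widest gap was at Hbb, with 6.53%, 5.85% and 5.67% against 31.7%, 31.7% and 28.7% (difference of means -24.7 percentage points), beside -2.71 to -10.4 at the other viewpoints. Within 20 kb all erythrocyte libraries were above all DE libraries at each viewpoint, by 13.3 to 19.3 percentage points in the means, with erythrocyte replicate 3 the highest. As shares of all interactions these differences were 4.88, 6.44, 5.98, 0.159, 4.35 and 5.05 percentage points for VPE, PSE_a, PSE_b, Hba, Hbb and Slc25a37, and the libraries overlapped at all but VPE and PSE_b. Beyond 2 Mb the libraries overlapped at each viewpoint but VPE (46.1%, 47.6% and 33.5% against 30.4%, 31.0% and 31.2%).

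**Figure D3:**
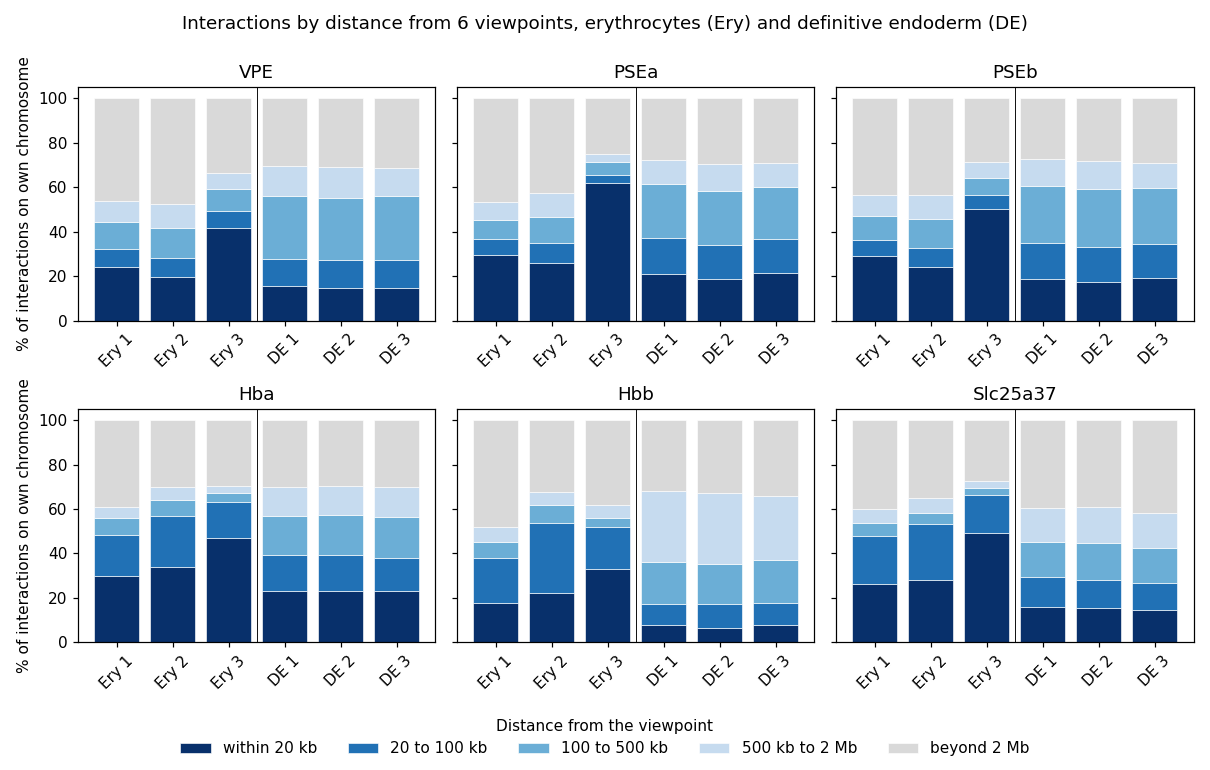
Share of the interactions on the viewpoint's own chromosome (%) in 5 classes of distance, stacked, for each of 3 erythrocyte (Ery) and 3 DE libraries at 6 viewpoints. In every panel the class from 100 to 500 kb is narrower in erythrocytes, and the class from 20 to 100 kb is wider in erythrocytes for Hbb and Slc25a37 and narrower for VPE, PSEa and PSEb.

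The median distance of a contact was 147, 45.5 and 25.9 kb for Hba in erythrocytes against 290, 285 and 311 kb in DE, and 163, 61.2 and 20.9 kb for Slc25a37 against 766, 770 and 962 kb (exact two-sided permutation p = 0.1 for both, the smallest possible). At the other 4 viewpoints the libraries overlapped (exact p = 0.4 for each), because the erythrocyte libraries spread from 1.25 to 1174 kb at PSE_a and from 77.3 to 1627 kb at Hbb, for example.

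Over all 5 kb bins with at least 10 reads, 86 of 1371 were called for VPE (3 higher and 83 lower in erythrocytes), 91 of 438 for PSE_a (2 and 89), 107 of 594 for PSE_b (2 and 105), 175 of 3566 for Hba (23 and 152), 115 of 205 for Hbb (13 and 102) and 305 of 652 for Slc25a37 (17 and 288). edgeR on the recovered reads called 105, 61, 85, 444, 97 and 153, of which 83, 58, 75, 165, 83 and 129 were also called by limma. DESeq2 called 22 bins higher and 0 lower for Hbb, and 8 higher and 4 lower for Slc25a37. The limma counts moved by over 1.5 times when single libraries were left out: for VPE to 251 without erythrocyte replicate 1, for PSE_a to 34, 28 and 60 and for PSE_b to 57, 59 and 67 without DE replicates 1, 2 and 3. For Hba, leaving out erythrocyte replicate 1 or 3 gave 287 and 360 calls. Leaving out each DE library in that order gave 365, 359 and 592 calls for Hba, 22, 52 and 48 for Hbb and 157, 111 and 173 for Slc25a37. The median log2 fold change of all bins was -0.44, -0.96, -0.81, -0.31, -2.63 and -1.58 for VPE, PSE_a, PSE_b, Hba, Hbb and Slc25a37.

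**Figure D4:**
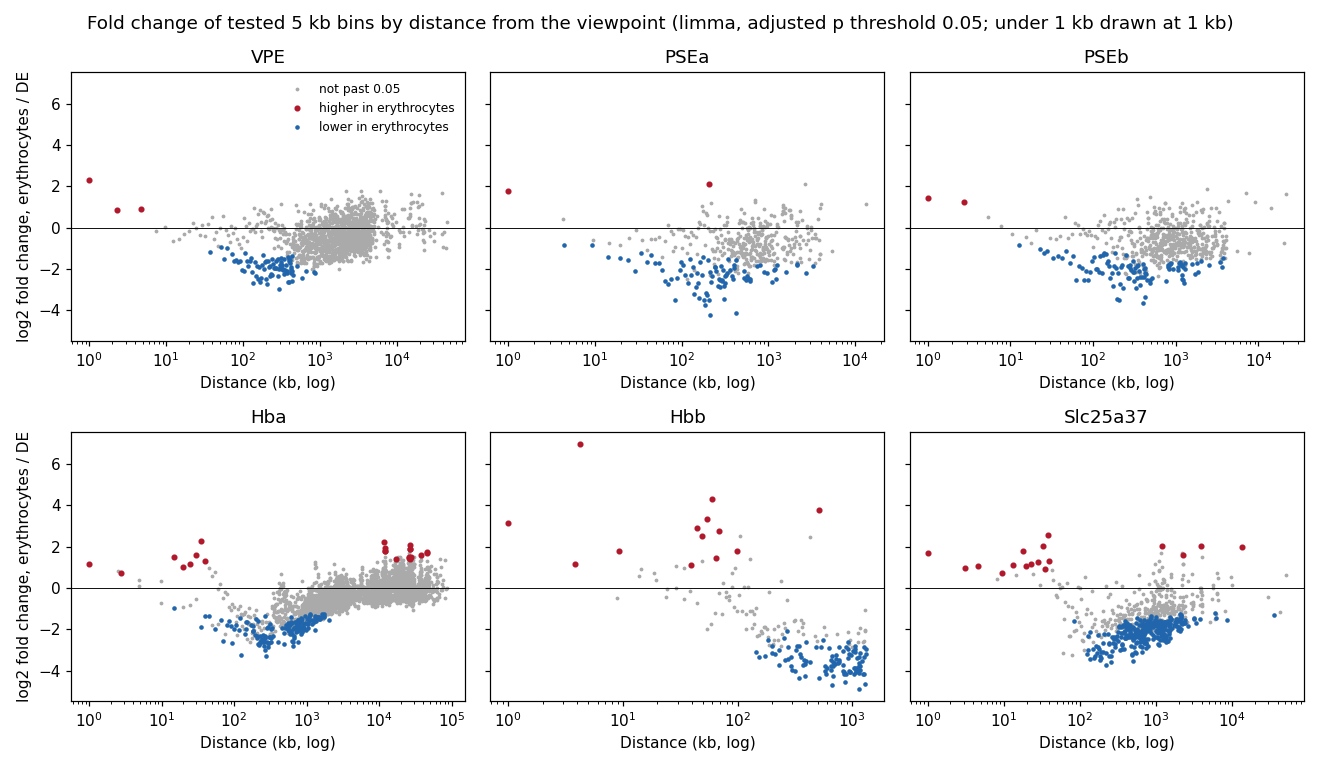
log2 fold change of erythrocytes over DE for every tested 5 kb bin against its distance from the viewpoint in kb (log axis), with bins past the adjusted threshold of 0.05 in red (higher in erythrocytes) or blue (lower). Apart from bins at the viewpoint, red points lie mostly within 100 kb of Hbb and Slc25a37, for Hba 8 lie within 100 kb and 15 beyond 2 Mb, 1 red point lies past 100 kb of PSEa, and blue points lie mostly from 100 kb to 2 Mb.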

How the data were processed

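The authors aligned the reads to mm9 with Bowtie, per the study's methods, and the submitters' processing notes also name Trim Galore. They deposited a signal for each DpnII fragment, the interactions of a viewpoint, which sums to the same total in every column. Versions and the handling of PCR duplicates were not given in the sources used here. Each signal was turned back into whole reads (100% of the values within 0.05 of a read) and rescaled to 100000 cis interactions, which hides differences in the share of contacts with other chromosomes. Counting intervals would cover counting error only, since reads carry no molecular identifiers.

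Reads were summed in 5 kb bins and in 5 kb windows around gene starts. Those with at least 10 reads over the 6 libraries were tested with limma 3.58.1 (R 4.3.3, eBayes with a variance trend) on log2(value + 10), so fold changes of low regions are understated. p-values were adjusted by Benjamini-Hochberg within a viewpoint, with a threshold of 0.05. Shares were compared with exact two-sided permutation tests (SciPy 1.17.1). edgeR 4.0.16 and DESeq2 1.42.0 on the recovered reads were alternatives, and the limma and edgeR fits were tested on simulated data. Of bins changed 4-fold in that simulation, limma recovered 23% for VPE, 37.9% for PSE_a, 44.9% for PSE_b, 11% for Hba, 12.2% for Hbb and 18.5% for Slc25a37. Of the simulated limma calls, 11.7% for PSE_b and 16.7% for Hbb were false (0% at the other viewpoints). With edgeR 6.94% for VPE, 15.4% for PSE_b and 10.7% for Hba were false (0% at the others). All false edgeR calls (5, 10 and 3) and 6 of the 7 false limma calls for PSE_b were lower in erythrocytes. Simulated bins were changed up and down alternately, while most called bins of the data fell, so these shares may not hold for the data. Every pair of libraries of a group differed beyond sampling noise at 1 or more viewpoints (chi-square over 1 Mb bins), and none were merged.

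Named were the viewpoints' own genes, listed genes (starts within 500 kb, apart from Rbms3, Adam28, Adamdec1 and Adam7, which lie farther) and, per viewpoint, up to 3 higher and 3 lower bins with the largest change past the threshold, beyond 20 kb and without overlap. Regions added to them are the Cmc1 to Eomes stretch, the gene bodies and the 30 kb beyond Hbb-y. Members and lists were chosen with earlier results of these data known. Thinning to equal cis reads and scaling of shares to contacts beyond 20 kb were added after seeing the data.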

Additional observations from a re-analysis of the deposited data

How the results depend on the processing

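The erythrocyte libraries held few cis interactions, and counts of called bins changed with the filter, the pseudocount, the variance trend and the libraries used. The count of called bins moved by over 1.5 times as follows. With a pseudocount of 2 it was 138 for VPE and 749 for Hba. Without the read minimum it was 26, 25, 15, 7 and 7 for VPE, PSE_a, PSE_b, Hba and Slc25a37. Without the variance trend it was 0 for VPE and 0 for PSE_b in limma (281 and 146 at an unadjusted p under 0.05, beside 105 and 85 calls by edgeR), 18 for PSE_a and 300 for Hba. For single DpnII fragments it was 392, 232, 273, 1195, 39 and 147 for VPE, PSE_a, PSE_b, Hba, Hbb and Slc25a37. edgeR called 444 for Hba and 153 for Slc25a37, and DESeq2 48, 431, 22 and 12 for PSE_a, Hba, Hbb and Slc25a37. Of the DESeq2 calls, 22 rose and 0 fell for Hbb, and 8 rose and 4 fell for Slc25a37. Lower bins numbered 102 and 288 at these 2 viewpoints in limma and 74 and 142 in edgeR. For Hba the count of called bins was 354 with scaling to all interactions, 62 with scaling to cis beyond 20 kb and 393 with adjustment over the 6 viewpoints. With all 3 cell types in 1 fit it was 511 for Hba and 61 for Hbb, and after thinning 65, 7 and 9 for PSE_b, Hbb and Slc25a37. Leaving out 1 library gave 95 to 251 for VPE, 28 to 106 for PSE_a, 57 to 133 for PSE_b, 213 to 592 for Hba, 22 to 119 for Hbb and 111 to 352 for Slc25a37. The median log2 fold change of all Hba bins was -0.31 in limma and -1.37 in edgeR, and that of all Hbb bins -2.63 and -1.85. With a pseudocount of 2 these limma medians were -0.91 and -4.10, and with scaling to all interactions -0.27 and -2.53.

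For contact with the viewpoints' own genes (log2 fold change), PSE_b with Eomes passed the threshold in edgeR (0.73), without the read minimum (0.54) and in a 10 kb window (1.09), and VPE with Eomes changed sign with scaling to cis beyond 20 kb (0.084) and after thinning (0.00026). Hba-a2 lost its call in edgeR (0.53), DESeq2 (0.47), with scaling to all interactions (0.53) or to cis beyond 20 kb (1.61) and without the variance trend (1.31). Hba-a1 passed with pseudocounts of 2 (1.29) and 50 (1.27), with all 3 cell types (1.28), adjusted over 6 viewpoints (1.28) and after thinning (1.23). Hbb-b1 passed in edgeR (2.14) and DESeq2 (2.42), with a pseudocount of 50 (1.38), scaling to cis beyond 20 kb (1.75), the level on other chromosomes subtracted (1.62) and a 10 kb window (1.37). Slc25a37 lost its call with a pseudocount of 2 (1.73), without the variance trend (1.73) and adjusted over 6 viewpoints (1.73). Leaving out 1 library gave -0.32 to -0.047, -0.64 to -0.51 and 0.20 to 0.77 for Eomes with VPE, PSE_a and PSE_b, 0.85 to 1.51 for Hba-a1, 1.00 to 1.48 for Hba-a2, 2.61 to 3.47 for Hbb-b2, 1.13 to 1.99 for Hbb-b1 and 1.04 to 2.17 for Slc25a37. Signs turned for Hba-x in edgeR (-0.48), DESeq2 (-0.55) and with scaling to all interactions (-0.48), for Mpg in DESeq2 (-0.0065) and with that scaling (-0.0054), and with it for Hbb-bh1 (-0.22) and D930020E02Rik (-0.086). The cause was not tested.

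The shares at lower coordinates kept their direction in all alternatives run. Class shares turned with scaling to all interactions for Hba at 20 to 100 kb (-1.48 percentage points) and beyond 2 Mb (-5.83) and for Hbb beyond 2 Mb (-6.52), with the level on other chromosomes subtracted for Hba (-1.50) and Hbb (-0.286) beyond 2 Mb, and with the total beyond 20 kb for Slc25a37 beyond 2 Mb (4.88). Median distance turned within 2 Mb for VPE (-137 kb), PSE_a (-78.8 kb) and PSE_b (-92.6 kb). The difference between viewpoint sets within 20 kb turned within 2 Mb (-3.46) and with scaling to all interactions (-2.58), and ran from -2.69 to 3.77 without 1 library. The difference in cis share ran from -17.0 to 0.871 for VPE and from -15.7 to 6.50 for PSE_a without 1 library. The cause was not tested.

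Replicate numbers are shared by the groups, and the main fit did not pair the samples by them. Same-numbered libraries did not deviate together over the tested bins (correlations from -0.0979 to 0.0359). Many of these bins held few reads, so this check cannot show whether same-numbered libraries shared a batch. With the replicate block, 89, 99, 126, 258, 119 and 302 bins were called for VPE, PSE_a, PSE_b, Hba, Hbb and Slc25a37, Hba-a1 (log2 fold change 1.28, adjusted p = 2.76e-08, limma) and Hbb-b1 (1.46, adjusted p = 0.0150, limma) passed, and Golga4 was lost with VPE (adjusted p = 0.0910, limma) and PSE_b (adjusted p = 0.0668, limma).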

Other observations

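Erythroid genes far from the viewpoints on the same chromosomes were read in 50 kb windows, as values with no test. The window at Slc4a1, the anion exchanger of the red cell membrane, lies 70.0 Mb from Hba and held 26, 2 and 13 reads in erythrocyte replicates 1, 2 and 3 and 2, 6 and 4 in DE. The erythrocyte mean was above 98.9% of the 2298 windows beyond 2 Mb on that chromosome and the DE mean above 21.7%, and the value of erythrocyte replicate 2 rests on 2 reads. The window at Trim58, a ubiquitin ligase gene of late red cell maturation, lies 26.3 Mb from Hba and held 24, 22 and 6 reads against 8, 12 and 11, above 99.0% and 63.3% of windows.

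On chromosome 7, the window at Uros, an enzyme of haem synthesis, held 5, 3 and 0 reads with Hbb in erythrocytes and none in DE. On chromosome 14, the windows at Xpo7 and Bnip3l, the latter a mitophagy receptor gene of maturing red cells, lie within a few Mb of Slc25a37. Xpo7 had 167 ± 107 interactions per 100000 in erythrocytes and 195 ± 21.0 in DE, and Bnip3l had 244 ± 59.6 and 155 ± 16.1 (SD, n = 3 libraries each).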
